A study of Mus musculus with 24 samples.

Results

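Astrocytes from the hippocampus of control mice were set against astrocytes from the cortex of control mice, both regions of the dorsal forebrain. The comparison took the 3 hippocampal and 3 cortical control libraries, 6 of the 24 in the series, and every gene. Both groups came from C57BL6 mice aged 20 weeks of genotype NFIAfl/fl; Aldh1l1-GFP, so both carry floxed Nfia alleles and an Aldh1l1-driven green fluorescent reporter, and the genotype of neither lists Cre. Hippocampal and cortical libraries labelled knockout, from NFIAfl/fl; Aldh1l1-CreER; Aldh1l1-GFP mice of the same strain and age, gave a second comparison of the 2 regions from 6 other libraries. Tissue was dissected and dissociated, cells were sorted by fluorescence, and bulk RNA was sequenced. No label names an animal, litter, sex or day, so p-values measure the spread between these libraries, which may be partly technical.

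Astrocytes clear glutamate and potassium around synapses, take up and release neurotransmitters, couple through gap junctions and secrete proteins that act on synapses and matrix. Those of different brain regions share a core programme and differ in filament protein, receptors, secreted factors and transcription factors that retain a trace of where the cells arose. Gfap, the astrocytic intermediate filament protein, is well known to be plentiful in hippocampal astrocytes and scarce in most cortical ones.

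In these libraries Gfap was the clearest gene on the hippocampal side, at 3.27 times the cortical level. On the cortical side stood Chrdl1, a secreted antagonist of bone morphogenetic proteins, Shisa9, an auxiliary subunit of AMPA-type glutamate receptors, Gabbr2, a subunit of the GABA-B receptor, Gfra1, a receptor for neurotrophic factors of the GDNF family, and Meis2, a homeodomain transcription factor. Their hippocampal levels were 2.75 to 8.49 times lower. The astrocyte markers that both regions share, among them the glutamate transporters, aquaporin 4 and the connexins, did not pass the test.

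The hippocampal control libraries held 7389472, 5543804 and 14151670 reads assigned to genes, and the cortical ones 5970802, 5596128 and 4306813. Rn45s, the ribosomal RNA precursor, took 0.966 to 2.36% of reads in hippocampal controls, against 19.0 to 20.9% in cortical controls. Among libraries labelled knockout it took 2.25 to 2.87% in hippocampus and 17.7 to 20.0% in cortex, so region cannot be told apart from whatever set this share. Astrocyte core markers summed to 97199 to 141392 CPM, reads divided by the library total and scaled up, in hippocampal controls and 114218 to 139490 in cortical ones. That total includes Rn45s, whose larger share in cortex lowers every cortical CPM, so CPM of the 2 regions are not on a like scale. On normalised reads, defined below, 33 of the 36 core markers were lower in hippocampus and 3 higher, with a median log2 fold change of -0.40. None of those 36 markers was at 0. Choroid plexus markers, the genes of the epithelium that makes cerebrospinal fluid, summed to 54786, 24536 and 44405 CPM in hippocampal controls, against 17803, 2482 and 1797 in cortical controls. Cortical control 1 thus stood apart from the other 2 cortical libraries and below all hippocampal ones, and none of the 65 listed markers was at 0 in all 6. Libraries labelled knockout held 2010 to 3269 in hippocampus and 1535 to 3469 in cortex. Reads of the Y-linked Ddx3y came from hippocampal control 1, cortical control 1 and hippocampal library 1 labelled knockout, and from no other of these 12 libraries. Xist, expressed in females, gave 0.541 and 0 CPM in hippocampal and cortical control 1, against 41.8 to 335 in the other controls. Each control group thus held libraries of both sexes, and so of more than 1 animal. Nfia, the targeted gene, gave 2084, 2249 and 2470 CPM in hippocampal libraries labelled knockout, against 967, 1445 and 1259 in hippocampal controls. In cortical libraries labelled knockout it gave 1590, 1769 and 1603, against 886, 932 and 1053 in cortical controls. Whole-gene reads cannot show a deleted exon, and the group is called by its label throughout.

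**Figure D1:**
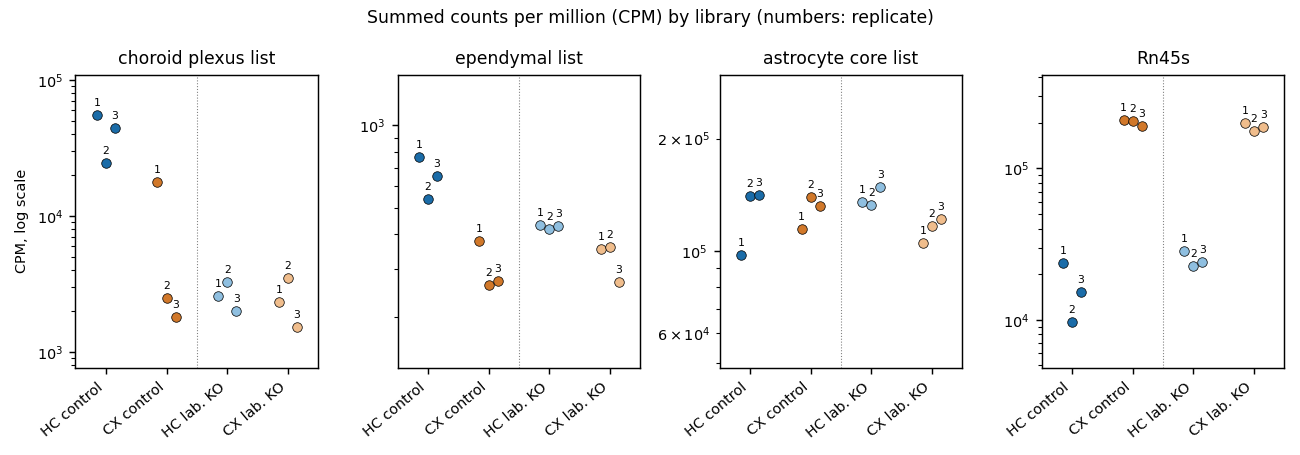
CPM by library, on log axes, for the summed choroid plexus, ependymal and astrocyte core lists and for Rn45s, with hippocampal (HC) and cortical (CX) controls left of the dotted line and libraries labelled knockout (lab. KO) right of it. Numbers are replicates; cortical control 1 has 17803 CPM from the choroid plexus list where cortical controls 2 and 3 have 2482 and 1797.

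Levels below are normalised reads, the recovered reads of a gene divided by the size factor of its library. Of 11375 genes with at least 20 normalised reads in at least 3 of the 6 libraries, 97 passed the limma test of hippocampal against cortical controls at a Benjamini-Hochberg adjusted p under 0.05, which is 0.853% of those tested. Of these, 39 were higher in hippocampus (0.343%) and 58 lower (0.51%). In all 97 the 3 hippocampal libraries and the 3 cortical libraries did not overlap, as was so for 8.66% of all tested genes in the higher direction and 10.1% in the lower. An unadjusted p under 0.05 was reached by 1556 genes. edgeR's quasi-likelihood test on recovered reads called 64 genes at the same adjusted p, 23 higher and 41 lower, and all 64 were among the 97. On the deposited values, where cortical libraries have their own scale, 555 genes were called, 515 of them higher in hippocampus, and the median log2 fold change of all tested genes was 0.33, where it was 0.00 on the joint scale. Leaving out cortical control 2 or cortical control 3 left 18 and 14 calls, and leaving out cortical control 1 gave 287. Of the 97 calls, 83 were lost without cortical control 3, 79 without cortical control 2 and 10 without cortical control 1. Hippocampal controls 1, 2 and 3 took 35, 49 and 17 with them, counting genes then too low to be tested as lost. Among the 97 genes, 12 were called whichever library was left out. Gfap was the 1 higher gene, and the 11 lower genes were Chrdl1, Shisa9, Gabbr2, Car8, Gfra1, Unc13c, Meis2, Camk2n1, Rn45s, Lars2 and Mir6236.

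The 2 regions were compared again in libraries labelled knockout, which share no library with the controls. There 11715 genes were tested and 348 called (2.97%), 179 higher (1.53%) and 169 lower (1.44%) in hippocampus, and 9.72% and 9.13% of all tested genes did not overlap between the regions in these directions. Of the 58 genes lower in control hippocampus, 39 were also called lower there, 67.2% of the control calls and 23.1% of the 169, and 57 had the same sign. Of the 39 genes higher in control hippocampus, 37 could be tested there and 10 were called higher, 25.6% of the control calls and 5.59% of the 179, with 29 of the same sign and 8 of the opposite sign. None was called in the opposite direction. Over all genes tested in both, 0.352% were called lower in both comparisons and 0.0902% higher in both. The median log2 fold change of the lower genes was -1.07 in libraries labelled knockout and -1.39 in controls. For the higher genes it was 0.40 in libraries labelled knockout and 1.58 in controls. The Rn45s share differed between the regions in both comparisons, as given above. Calls shared by the 2 comparisons thus cannot tell region apart from whatever set that share.

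**Figure D2:**
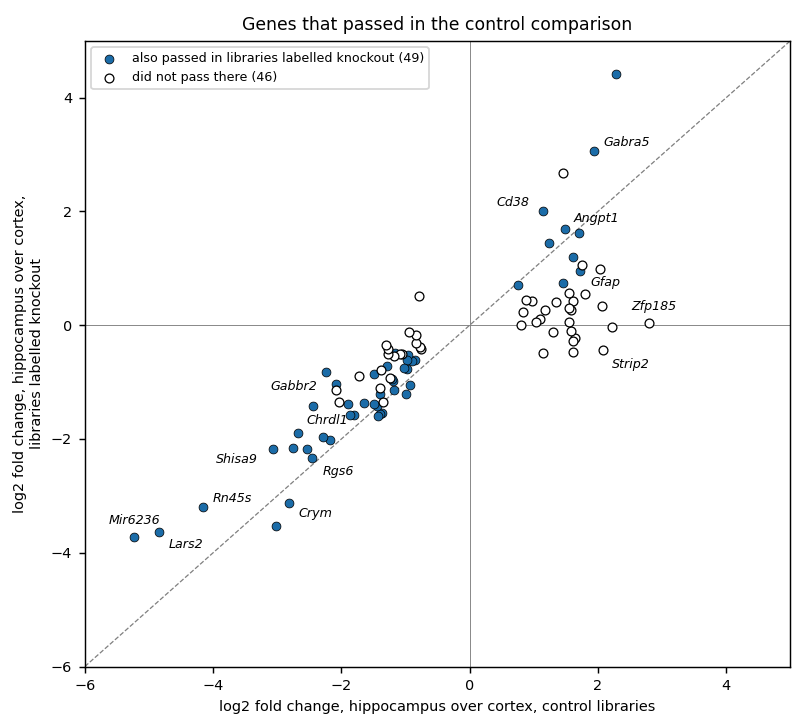
Log2 fold change, hippocampus over cortex, of the genes called in the control comparison, in controls (horizontal) and in libraries labelled knockout (vertical), with filled points for the 49 that also passed there, open points for the 46 that did not, and the dashed line marking equal values. Genes lower in hippocampus lie near the dashed line or between it and 0, and most open points on the right lie near 0 on the vertical axis.

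Among genes higher in hippocampus, Gfap (chromosome 11, 102887336 to 102900912, minus strand of mm10) gave 4145, 4511 and 3862 normalised reads in hippocampal controls, against 1355, 1005 and 1470 in cortical controls. Every hippocampal library lay far above every cortical one, with little spread within either group. The ratio of means was 3.27. After adding 5 to each value the difference was 1.72 on the log2 scale (SE 0.18, limma adjusted p = 0.000288). Gfap in libraries labelled knockout gave 2528, 1660 and 1387 in hippocampus against 864, 1052 and 884 in cortex, again without overlap and with a log2 fold change of 0.95 (adjusted p = 0.0099). Bulk libraries cannot tell more Gfap-rich cells apart from more Gfap RNA per cell.

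The promoters of Gfap, the higher gene called in every reduced set of libraries, and of Rgs6 and Gabbr2, both lower in hippocampus, are shown because MEIS transcription factors, described below, were themselves lower in hippocampus. Each runs from 250 bases before to 50 bases after the start in RefSeq, build GRCm38.p6, and capitals mark the letters of the MEIS core TGACAG, sought on both strands with no other motif.
Gfap, chr11:102897151-102897450, minus strand: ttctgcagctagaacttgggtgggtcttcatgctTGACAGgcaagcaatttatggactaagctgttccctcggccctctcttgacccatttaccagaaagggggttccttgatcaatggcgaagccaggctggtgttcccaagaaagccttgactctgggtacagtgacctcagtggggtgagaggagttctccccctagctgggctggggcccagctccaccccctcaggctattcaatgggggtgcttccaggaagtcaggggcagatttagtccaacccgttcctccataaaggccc
Rgs6, chr12:82617249-82617548, plus strand: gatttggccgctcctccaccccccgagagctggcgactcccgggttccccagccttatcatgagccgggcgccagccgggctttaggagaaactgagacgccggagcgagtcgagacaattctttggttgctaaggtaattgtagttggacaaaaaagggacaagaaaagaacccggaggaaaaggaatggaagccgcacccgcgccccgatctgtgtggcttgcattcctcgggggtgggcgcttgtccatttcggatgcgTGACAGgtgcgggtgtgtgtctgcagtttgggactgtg
Gabbr2, chr4:46991665-46991964, minus strand: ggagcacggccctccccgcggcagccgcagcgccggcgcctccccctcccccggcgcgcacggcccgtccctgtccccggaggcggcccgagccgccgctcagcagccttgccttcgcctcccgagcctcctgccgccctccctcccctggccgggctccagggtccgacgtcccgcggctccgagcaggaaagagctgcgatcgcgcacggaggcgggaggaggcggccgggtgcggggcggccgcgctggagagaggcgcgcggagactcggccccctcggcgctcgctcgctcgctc
The core stood at position -216 from the start in Gfap and at position 13 in Rgs6, and these letters were not in the window of Gabbr2 or of Meis2. They occurred in 19.2% of all 32851 promoters and in 16.3% of the promoters of tested genes. They were in 11 of 45 promoters (24.4%) of 31 genes called higher and in 13 of 58 (22.4%) of 33 genes called lower. A match is a run of letters, not a bound site.

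Hopx, an atypical homeodomain protein that is also a marker of hippocampal neural stem cells, gave 2354, 3942 and 3990 normalised reads in hippocampal controls against 1509, 1482 and 1259 in cortical controls. Its log2 fold change was 1.24 (SE 0.20, limma adjusted p = 0.0147) and 1.45 in libraries labelled knockout (adjusted p = 0.0279). Other neural stem cell and neuroblast markers were summed without Hopx. Their sums were 684.2, 782 and 717 CPM in hippocampal controls and 632, 593 and 683.6 in cortical ones. Because Rn45s lowers cortical CPM, these sums cannot tell whether the regions differ. On normalised reads, 12 of the 18 tested markers of this list, Hopx included, were lower in hippocampus and 6 higher. Their median was -0.28 on the log2 scale. Eomes was at 0 in all 6, and the part of such cells in the Hopx difference was not tested. Cd38, an enzyme that breaks down NAD, gave 512, 686 and 881 normalised reads in hippocampal controls against 291, 315 and 305 in cortical controls. Here hippocampal control 3 was highest and the cortical libraries lay close together (log2 fold change 1.14, adjusted p = 0.0224), and in libraries labelled knockout the difference was larger (2.01, adjusted p = 2.82e-05). Angpt1, the ligand of the endothelial Tie2 receptor, gave 266 or more in every hippocampal control, 315.5 ± 43.9, against 111 ± 27.9 in cortical controls (SD, n = 3 libraries each). Its log2 fold change was 1.48 in controls (adjusted p = 0.015) and 1.69 in libraries labelled knockout (adjusted p = 0.00304). The control calls of all 3 genes were lost without cortical control 2 or 3, and those of Cd38 and Angpt1 also without hippocampal control 2, with an adjusted p of up to 0.204 for Hopx.

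Gabra5, a GABA-A receptor subunit known from hippocampal neurons, gave 111, 92.2 and 58.5 normalised reads in hippocampal controls against 20.6, 15.6 and 18.9 in cortical controls. The cortical values were close together and low, and the log2 fold change was 1.94 (adjusted p = 0.0379) and 3.06 in libraries labelled knockout (adjusted p = 0.00244). Markers of hippocampal excitatory neurons summed to 815, 838 and 652 CPM in hippocampal controls and to 454, 444 and 471 in cortical controls, where Rn45s lowers CPM. Of their 27 genes, 13 were tested and none passed, with a median log2 fold change of 0.35, and the part of neuronal RNA in the Gabra5 value was not tested. Lppr4, a neuronal membrane protein of the phospholipid phosphatase-related family, gave 394 ± 72.0 in hippocampal controls against 123 ± 53.7 in cortical controls (SD, n = 3 libraries each; log2 fold change 1.70, adjusted p = 0.0147). The actin regulators Wipf3 (1.60) and Cald1 (1.45), which encode a WASP-interacting protein and caldesmon, were also higher in both comparisons, as was E330013P04Rik, an uncharacterised transcript, at 2.29 in controls and 4.41 in libraries labelled knockout. Each of the control calls of Gabra5, Lppr4, Wipf3, Cald1 and E330013P04Rik was lost without cortical control 2 or 3, with an adjusted p of up to 0.248 for Cald1. That of Gabra5 was also lost without any 1 of the hippocampal controls. The call of E330013P04Rik was lost without hippocampal control 2 or 3, and that of Cald1 without hippocampal control 2.

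**Figure D3:**
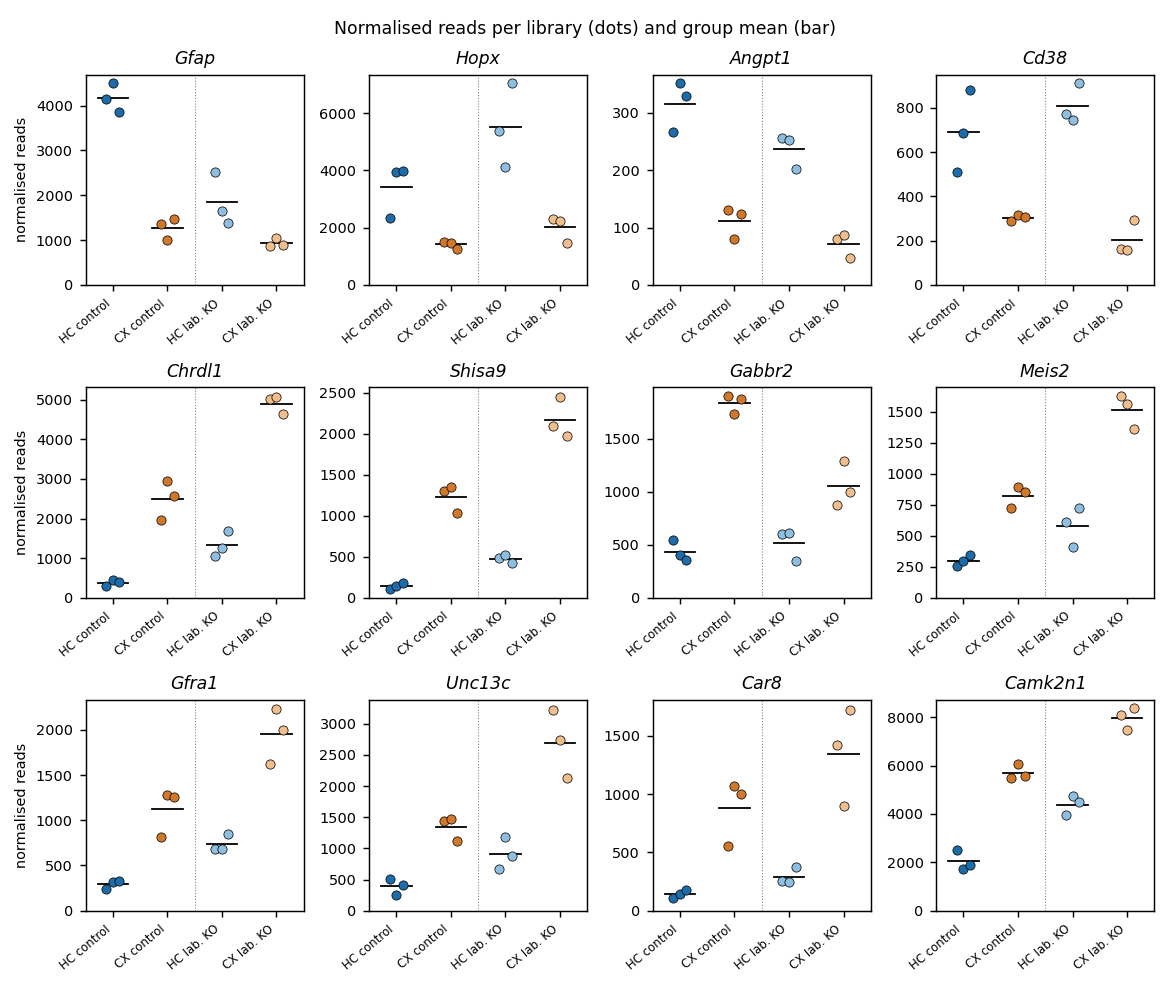
Normalised reads per library (dots) and group mean (bar) of 4 genes higher and 8 genes lower in hippocampus, with hippocampal (HC) and cortical (CX) controls left of the dotted line and libraries labelled knockout (lab. KO) right of it. Each side was normalised on its own, so that levels compare within a side; the 2 regions do not overlap on either side in any of the 12 genes.

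The other 29 higher genes were not called in libraries labelled knockout, where 2 of them, Fndc1 and Slc16a12, fell below the level needed for a test. Strip2, a subunit of a phosphatase and kinase scaffold, gave 1103, 879.7 and 1156 normalised reads in hippocampal controls against 444.5, 206 and 157 in cortical controls. Its log2 fold change was 2.07 in controls (adjusted p = 0.0343) and -0.44 in libraries labelled knockout (adjusted p = 0.642). Fndc1, a fibronectin type III domain protein, gave 136, 82.9 and 119 in hippocampal controls against 15.8, 8.52 and 8.61 in cortical controls, with a log2 fold change of 2.89 (adjusted p = 0.00428). In both genes cortical control 1 was the highest cortical library and hippocampal control 2 the lowest hippocampal one. Zfp185 (2.80), a cytoskeletal LIM protein, the creatine transporter Slc16a12 (2.64), the retinol receptor Stra6 (2.07), the matrix proteins Ecm2 (2.04) and Bgn (1.60), the heparan sulphate sulphotransferase Hs6st2 (1.75) and the adaptor Spsb1 (1.80) were others with large log2 fold changes. The heat shock protein Hsph1 (1.03), the amyloid precursor App (0.97) and the circadian factor Clock (0.81) also passed. Of the genes named here, all but Fndc1 lost their control call without cortical control 2 or 3, with an adjusted p of up to 0.306 for Zfp185. Fndc1 was too low to be tested, and so lost its call, without any 1 of the hippocampal controls. Strip2 and Hs6st2 kept their call in 1 of 6 fits with a library left out. Apart from Bgn and Hsph1, the other genes also lost it without at least 1 hippocampal control. Whether the difference of any of these genes itself differed between the 2 comparisons was not tested.

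The place of 2 libraries among the called genes is given here beside their choroid plexus reads. Whether single genes follow the choroid plexus list across libraries was not tested. Cortical control 1, which held the most choroid plexus reads of the cortical controls, was the highest cortical library in 29 of the 39 higher genes (74.4%), against 32.8% of all tested genes. It was also the lowest cortical library in 38 of the 58 lower genes (65.5%), against 35.8% of all, so it lay on the hippocampal side of the other cortical controls in most calls of both directions. Hippocampal control 2, which held the fewest of the hippocampal controls, was the lowest hippocampal library in 22 of the 39 higher genes (56.4%), against 31.9% of all. It was lowest in 2 of the 10 genes higher in both comparisons and in 20 of the other 29. Within the list 57 of 67 genes were tested, and 2 were called, Baiap2l1 (2.22, adjusted p = 0.0453) and the copper transporter Slc31a1 (1.30, adjusted p = 0.0496), with a median log2 fold change of 2.20, against 0.00 for all genes. Ttr, the thyroxine carrier that choroid plexus secretes, gave 28607, 12945 and 23985 CPM in hippocampal controls against 9426, 598 and 200 in cortical controls, and at a log2 fold change of 3.89 it did not pass (adjusted p = 0.411). Without cortical control 1, 38 of the 54 list members then tested were called higher, and 38 of the 39 higher genes kept their call, as did 49 of the 58 lower genes. The list median was -0.06 in libraries labelled knockout. The 24 tested ependymal genes had a median of 1.42, all above 0, with no call. Ependymal reads summed to 537 to 765 CPM in hippocampal controls and 262 to 379 in cortical ones, with Mcidas at 0 in all 6. The part of these cells in the higher genes was not tested. In libraries labelled knockout, where 10 of the higher genes passed again, the choroid plexus sums of the 2 regions overlapped.

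Among genes lower in hippocampus, secreted and extracellular proteins are described first, which is not a ranking. Chrdl1 (chromosome X, 143285674 to 143394262, minus strand of mm10), which astrocytes also release to act on AMPA receptor composition at synapses, gave 296, 460 and 396 normalised reads in hippocampal controls, against 1951, 2959 and 2557 in cortical controls. The lowest cortical value stood far above the highest hippocampal one, and the hippocampal mean was 6.48-fold lower. On the log2 scale the difference was -2.68 (SE 0.20, adjusted p = 1.15e-05). Chrdl1 in libraries labelled knockout gave 1061, 1254 and 1679 in hippocampus against 5006, 5069 and 4630 in cortex (-1.90, adjusted p = 1.34e-07). Ptn, the growth factor pleiotrophin, gave 2557, 4412 and 4197 in hippocampal controls against 7728, 9808 and 9160 in cortical controls. Hippocampal control 1 was lowest, and the log2 fold change of -1.29 (adjusted p = 0.015) came with -0.71 in libraries labelled knockout (adjusted p = 8.11e-05). Dkk3, a secreted Dickkopf protein, gave 2095 ± 479 in hippocampal controls and 4606 ± 128 in cortical controls (SD, n = 3 libraries each; -1.16, adjusted p = 0.0124). Sfrp1, a secreted Wnt antagonist, gave 509 ± 109 in hippocampal controls and 1352 ± 486 in cortical controls (-1.35, adjusted p = 0.0492), and was not called in libraries labelled knockout (-1.35, adjusted p = 0.0624). Bcan, the proteoglycan brevican of perineuronal matrix, gave 1659, 2457 and 2595 in hippocampal controls against 4135, 4420 and 4243 in cortical controls (-0.96, adjusted p = 0.0343). The laminin chain Lama3 (-1.41), the growth factor Hgf (-1.24) and the ligand neuregulin, Nrg1 (-1.72), were lower too, of which Lama3 was also called in libraries labelled knockout. Apart from that of Chrdl1, these control calls were lost without cortical control 2 or 3, with an adjusted p of up to 0.294 for Lama3. That of Sfrp1 was also lost without any 1 of the hippocampal controls, and those of Bcan, Lama3, Hgf and Nrg1 without at least hippocampal control 2.

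Receptors and their partners made up the next group. Shisa9 (chromosome 16, 11984113 to 12270902, plus strand) gave 111, 139.9 and 184 normalised reads in hippocampal controls against 1297, 1353 and 1040 in cortical controls. Its hippocampal mean was 8.49-fold lower, a difference of -3.06 on the log2 scale (SE 0.21, adjusted p = 6.83e-06), and no library of either region came near the other region. Shisa9 in libraries labelled knockout gave 484, 523 and 425 in hippocampus against 2096, 2450.4 and 1972 in cortex (-2.17, adjusted p = 7.11e-09). Gabbr2 (chromosome 4, 46662305 to 46991873, minus strand), whose RefSeq promoter is printed above, gave 543, 403 and 358 in hippocampal controls against 1909, 1738 and 1877 in cortical controls. No cortical value came near a hippocampal one, and the difference was -2.09 on the log2 scale (SE 0.18, adjusted p = 3.85e-05) in controls and -1.04 in libraries labelled knockout (adjusted p = 0.0129). Gfra1 (chromosome 19, 58235604 to 58455909, minus strand) gave 238, 322 and 327 in hippocampal controls against 819, 1284 and 1262 in cortical controls. Cortical control 1 was the lowest cortical library but well above every hippocampal one, and the log2 fold change was -1.89 (adjusted p = 0.000532). Cntfr, a receptor of ciliary neurotrophic factor (-1.22), and Fzd2, a Wnt receptor (-0.98), were lower in both comparisons. Flrt1, a membrane ligand of the FGF and Unc5 receptors (-1.05), and Dner, a Notch-binding membrane protein (-1.08), were called in controls. The control calls of Cntfr, Fzd2, Flrt1 and Dner were lost without cortical control 2 or 3, with an adjusted p of up to 0.305 for Dner. That of Fzd2 was also lost without any 1 of the hippocampal controls, and that of Dner without hippocampal control 1 or 2.

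Signalling proteins inside the cell followed. Rgs6 and Rgs7, which belong to the same family of regulators of G protein signalling, were both lower. Rgs6 gave 21.9, 34.2 and 61.8 normalised reads in hippocampal controls against 203.5, 297 and 181 in cortical controls (-2.46, adjusted p = 0.00581), and -2.34 in libraries labelled knockout. Rgs7 gave 129, 161 and 202 in hippocampal controls against 428, 606 and 527 in cortical controls (-1.65, adjusted p = 0.0033), and -1.36 in libraries labelled knockout. In neither gene did a hippocampal library come near a cortical one. Car8, a carbonic anhydrase-related protein that binds the inositol trisphosphate receptor, gave 111, 144 and 179 in hippocampal controls against 557, 1072 and 1004 in cortical controls (-2.53, adjusted p = 0.000394). Camk2n1, an inhibitor of calmodulin-dependent kinase II, gave 2516, 1712 and 1904 in hippocampal controls against 5469, 6063 and 5586 in cortical controls (-1.50, adjusted p = 0.00112). Unc13c, a Munc13 protein of vesicle priming, gave 508, 258 and 419 in hippocampal controls against 1446, 1478 and 1121 in cortical controls (-1.80, adjusted p = 0.00267). These 3 genes were lower in libraries labelled knockout as well, at -2.17, -0.86 and -1.59. Adrbk2, a kinase of G protein-coupled receptors (-1.27), was called in controls. The control call of Rgs7 was lost without cortical control 3 (adjusted p = 0.0717), and those of Rgs6 and Adrbk2 without cortical control 2 or 3 (up to 0.134 for Adrbk2).

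Genes of transport and metabolism were lower as well. Crym, which binds thyroid hormone in the cytosol, gave 14.1, 13.5 and 30.3 normalised reads in hippocampal controls against 214, 109 and 169 in cortical controls. All 3 hippocampal values lay near the level of 20 used as a filter, and the log2 fold change was -2.82 (adjusted p = 0.00404) in controls and -3.12 in libraries labelled knockout (adjusted p = 0.00011). Its call was lost without cortical control 3 (adjusted p = 0.0906). Rpe65, known as the retinoid isomerase of the retinal pigment epithelium, gave 27.1 ± 10.6 in hippocampal controls and 208 ± 46.8 in cortical controls (SD, n = 3 libraries each; -2.76, adjusted p = 0.0018). Kcnk1, a two-pore potassium channel, gave 797, 402 and 680.4 in hippocampal controls against 1567, 1664 and 1577 in cortical controls (-1.40, adjusted p = 0.0116), and in libraries labelled knockout its -1.10 did not pass (adjusted p = 0.387). Slc38a3, the glutamine exporter of astrocytes, gave 1041, 1196 and 1494 in hippocampal controls against 2057, 2147 and 2423 in cortical controls (-0.84, adjusted p = 0.0387). The regions overlapped for Slc38a3 in libraries labelled knockout (-0.17, adjusted p = 0.502). Astrocyte core markers had a median of -0.40 in controls and 0.04 in libraries labelled knockout. The citrate transporter Slc13a5 (-1.18) and the sugar-modifying enzymes Eogt (-1.43), Hs3st3a1 (-2.29) and Colgalt2 (-1.39) were also lower. The control calls of Rpe65 and Eogt were lost without cortical control 3 and those of Kcnk1, Slc38a3, Slc13a5 and Colgalt2 without cortical control 2 or 3, with an adjusted p of up to 0.306 for Slc38a3. That of Slc38a3 was also lost without hippocampal control 2, and that of Colgalt2 without hippocampal control 1 or 2. The call of Hs3st3a1 was lost without cortical control 1 or 3 or hippocampal control 1.

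Of forebrain patterning transcription factors, 51 were tested, 1 was called higher, Hopx, and 2 were called lower, both of the MEIS family, with a median of -0.17. Meis2 (chromosome 2, 115863064 to 116065839, minus strand) gave 258, 295 and 344 normalised reads in hippocampal controls against 724, 892 and 851 in cortical controls (-1.45, adjusted p = 0.00143). Meis1 (chromosome 11, 18879817 to 19018985, minus strand) gave 16.2, 15.5 and 21.9 in hippocampal controls against 100.5, 59.6 and 77.5 in cortical controls (-1.86, adjusted p = 0.0441). Both were apart from the cortical values in every library, and both were lower in libraries labelled knockout, at -1.42 and -1.58. The control call of Meis1 was kept in 1 of 6 fits with a library left out, that without hippocampal control 3 (adjusted p of up to 0.283 in the others). The forebrain regulators Emx2 (-0.18), Lhx2 (-0.41) and Lef1 (-0.32) did not pass, nor did Zbtb20 (0.35), which patterns the hippocampus, or Nr2f1 (0.54, adjusted p = 0.25), which patterns cortical areas. Emx1 was too low to be tested. Nr2f1 (0.89, adjusted p = 0.00197) and Emx2 (0.68, adjusted p = 0.0216) were higher in hippocampus in libraries labelled knockout. Prox1, a factor of dentate granule cells, had a log2 fold change of 1.22 in controls (adjusted p = 0.0539) and 1.72 in libraries labelled knockout (adjusted p = 0.00565).

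None of 35 astrocyte identity transcription factors was called in controls, with a median of -0.26. Nfia gave 5036, 8303 and 7493 normalised reads in hippocampal controls against 6405, 7406 and 7807 in cortical controls, with overlap (-0.08, adjusted p = 0.921). Nfib (-0.07), Nfic (-0.37) and Nfix (-0.13), the other nuclear factor I genes, and Sox9 (-0.44) and Id3 (0.12) did not pass. Of 36 astrocyte core markers, Gfap was called higher and Bcan lower, 33 had a negative sign, and the median was -0.40. Aldh1l1 (-0.57), Slc1a2 (-0.49), Slc1a3 (-0.62), Aqp4 (-0.49), Kcnj10 (-0.43), Gja1 (-0.40) and Gjb6 (-0.23) did not pass, and in libraries labelled knockout the list median was 0.04. Il33, an alarmin cytokine, did not pass either (-0.20). Sparc, a secreted antagonist of synapse formation, gave 8369.5, 10577 and 9329 in hippocampal controls against 5730.5, 5239.6 and 6391 in cortical controls, without overlap. Its log2 fold change of 0.70 missed the threshold (adjusted p = 0.0774), passed when hippocampal control 1 was left out (0.79, adjusted p = 0.0115), and was 0.84 in libraries labelled knockout (adjusted p = 3.78e-05).

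The remaining lists held few calls, to be read against 0.853% of all tested genes in controls and, in libraries labelled knockout, 1.53% called higher and 1.44% called lower. Of 39 Wnt pathway genes, Fzd2, Sfrp1 and Dkk3 were lower and none higher. Among 31 genes of the BMP pathway Chrdl1 was lower, among 21 of the Notch pathway Dner, and among 20 of the FGF pathway Fgf12, an intracellular FGF that binds sodium channels (-0.94). The Fgf12 call was kept in 1 of 6 fits with a library left out. No hedgehog gene was called of 14. Secreted synapse regulators had Chrdl1 and Ptn lower of 32, matrix genes had Bcan and Lama3 lower of 54, and adhesion and guidance genes had Flrt1 lower of 104. Gabbr2 was the 1 call among 28 genes of GABA, glycine and monoamine handling, and Slc38a3 the 1 call among 18 of glutamate uptake and the glutamine cycle. None of 26 glutamate receptor genes passed in controls, while in libraries labelled knockout Grm3 was lower and 6 of 25 were higher, the AMPA and NMDA receptor subunits Gria1, Gria2, Grin1, Grin2b and Grin3a and the metabotropic Grm5. Grm5 had a log2 fold change of 1.48 there (adjusted p = 0.000216) and 0.86 in controls (adjusted p = 0.0938). Neuronal lists did not shift as a whole in 1 direction in libraries labelled knockout. Of 37 pan-neuronal genes 5 were called higher there and 1 lower, and of 16 hippocampal excitatory neuron genes 3 were called higher. Among 17 cortical excitatory neuron genes 2 were called higher and 1 lower. On the log2 scale the pan-neuronal median was 0.11, with 21 genes positive and 16 negative. The cortical excitatory median was -0.38, with 5 positive and 12 negative. Markers of hippocampal excitatory neurons summed there to 741, 745 and 613 CPM in hippocampus against 548, 487 and 411 in cortex. Rn45s lowers cortical CPM, as described above, so these sums cannot show a separation of the regions. On normalised reads the 16 tested members had a median log2 fold change of 0.21 there, with 9 positive and 7 negative. Pan-neuronal markers summed to 2891, 3250 and 2111 CPM in hippocampus against 2102, 1887 and 2125 in cortex, with overlap. None of these markers was at 0 in all 6 libraries, and the part of neuronal RNA in the receptor values was not tested. Thyroid and glucocorticoid signalling had 1 gene higher and 1 lower of 22, the lower being Crym, and potassium buffering, water and ion transport had 1 higher and 1 lower of 53, the lower being Kcnk1. Retinoic acid genes had Stra6 higher of 13, clock genes Clock higher of 18, and dissociation response genes Hsph1 higher of 30. Cholesterol synthesis had no call among 27 genes, of which 25 were negative, with a median of -0.45 in controls and -0.24 in libraries labelled knockout. No gene was called among 36 of lipid transport, 32 of glycolysis and glycogen, 34 of metallothioneins and antioxidant defence, 26 G protein-coupled receptors, 24 of the interferon response or 47 ribosomal protein genes. Oligodendrocyte, precursor, microglial, macrophage, vascular, pan-neuronal and cortical neuron lists had no call in controls, and fibroblast genes had Bgn higher of 18.

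**Figure D4:**
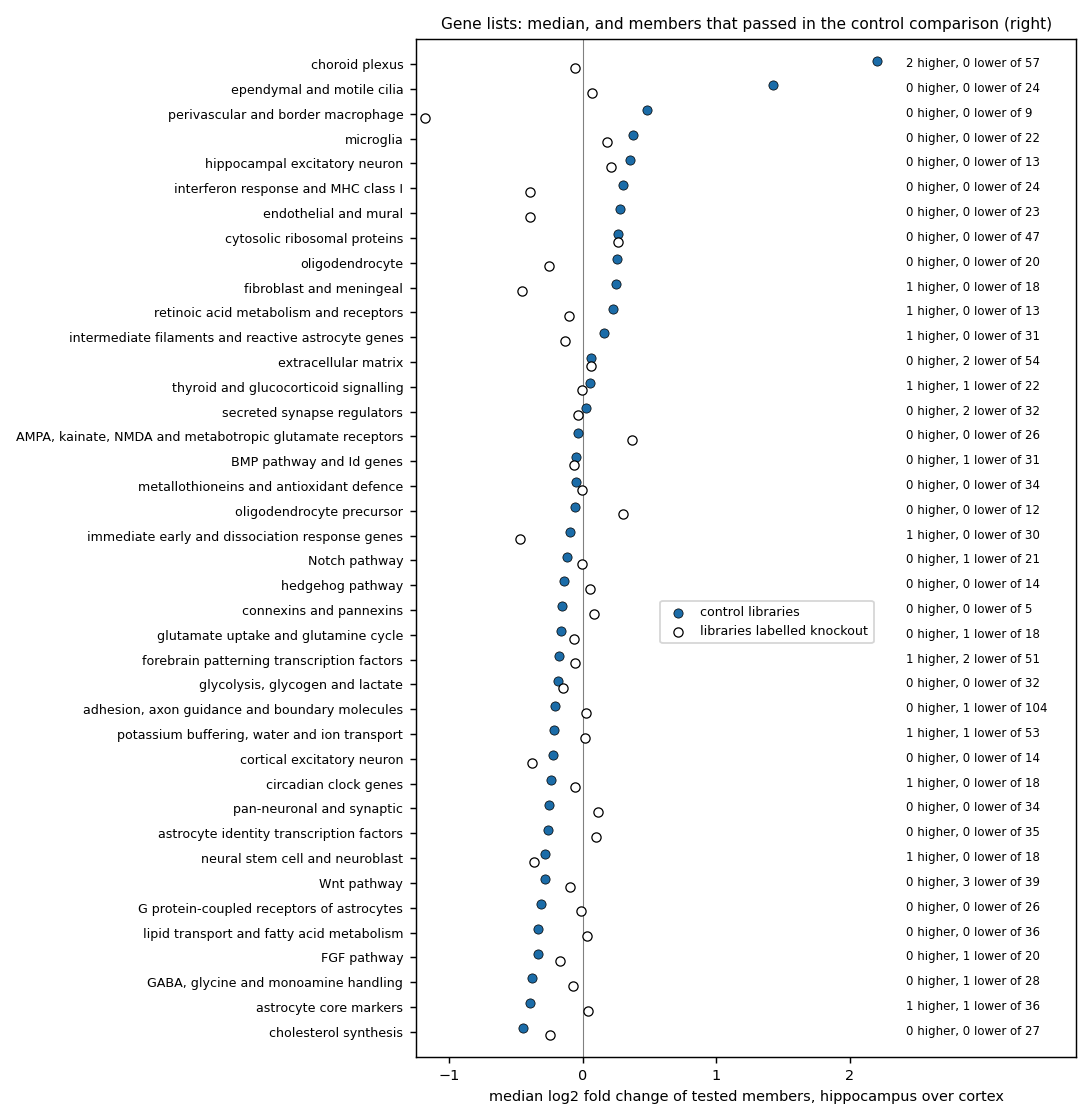
Median log2 fold change, hippocampus over cortex, of the tested members of each gene list with at least 5 tested genes, in controls (filled) and in libraries labelled knockout (open), with the number of members called in controls at the right. The choroid plexus and ependymal lists lie furthest from 0 in controls, at 2.20 and 1.42, and near 0 in libraries labelled knockout.

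Of the 97 called genes, the 3 with the lowest log2 fold changes, Mir6236, Lars2 and Rn45s, are tied to ribosomal RNA and are uncertain as gene expression, as is Mir6240. Rn45s was at -4.15, Mir6236 at -5.24, Mir6240 at -3.01 and Lars2, the mitochondrial leucyl-tRNA synthetase, at -4.84. Lars2 gave 589, 225 and 413 CPM in hippocampal controls against 7987, 8053 and 8374 in cortical controls, and 752 to 895 CPM against 7529 to 8632 in libraries labelled knockout. The mouse Lars2 and Mir6236 annotations are known to hold stretches that resemble ribosomal RNA, so reads of the 2 kinds cannot be told apart.

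Olfactory bulb and brainstem controls show how far the cortical side is shared, on a scale set over all 24 libraries and as a description. Gfap averaged 3724 ± 315 normalised reads in hippocampus, 3561 ± 461 in olfactory bulb, 1475 ± 312 in brainstem and 1141 ± 223 in cortex. Chrdl1 averaged 342 ± 72.7 in hippocampus, 2949 ± 192 in olfactory bulb, 5.27 ± 1.19 in brainstem and 2222 ± 446 in cortex. Meis2 averaged 266 ± 35.4 in hippocampus, 841 ± 51.7 in olfactory bulb, 288 ± 5.16 in brainstem and 734 ± 76.8 in cortex. Hippocampus lay within the spread of olfactory bulb for Gfap and close to brainstem for Meis2, while for Chrdl1 it lay between brainstem and the other 2 regions. Rn45s averaged 80332 ± 30505 in hippocampus and 130024 ± 22004 in olfactory bulb, against 1373490 ± 214906 in brainstem and 1357890 ± 98814 in cortex (SD, n = 3 libraries each).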

How the data were processed

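For each library the authors deposited a normalised signal for 24421 gene names. Per the submitters' processing notes FastQC, STAR 2.5.0a, DESeq2 1.20.0 and mm10 were used, and the counting tool, annotation and filters are not given in the sources used here. Per the labels' protocols, total RNA came from the RNeasy Micro kit and went into the NuGEN Trio kit. Each deposited value multiplied by the factor of its library gave whole reads (tolerance 0.01 read, 100% of values). The cortical factors equal median-of-ratios factors over the 6 cortical libraries alone. The 6 control libraries were therefore rescaled jointly by median-of-ratios factors, and the 6 libraries labelled knockout likewise.

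Genes with at least 20 normalised reads in at least 3 of 6 libraries were tested. With 5 added to each value, log2 levels went into limma 3.58.1 under R 4.3.3, with an intensity trend and robust moderation, two-sided, with Benjamini-Hochberg adjustment over all tested genes and a threshold of 0.05. The added 5 reduces fold changes of low genes. edgeR 4.0.16 and DESeq2 1.42.0 were alternatives on recovered reads. The scripts were tested on simulated data. Members, gene lists and tests were chosen with earlier results of these data known. Named genes were up to 15 per direction with the largest log2 fold change and a mean of at least 50 in the higher group, up to 15 per direction also called in libraries labelled knockout, up to 6 called members per list and direction, and a fixed list; choroid plexus genes, unnamed models and ribosomal features were skipped where the rule says so, and some other called genes were named after their values were seen. Some genes that the rule names are not reported here. Coordinates are those of GENCODE vM21, which held 23350 of the names, and promoters those of RefSeq GRCm38.p6. The table held 27 names turned into dates, 2 repeated names and 0 mitochondrially encoded genes. Alternatives were other constants, filters, scalings, tools, sets of libraries, a fold threshold, thinning to equal depth, the replicate block and each library left out. Added after seeing the data were a fit of 12 hippocampal and cortical libraries, one without choroid plexus genes, and TMM scaling of the libraries labelled knockout.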

Additional observations from a re-analysis of the deposited data

Results flagged for a closer look

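Slc31a1, the copper transporter, was higher in hippocampus in all control libraries and lower in all libraries labelled knockout. It gave 1032, 762 and 1021 normalised reads in hippocampal controls against 584, 348 and 260.0 in cortical controls, a log2 fold change of 1.30. In libraries labelled knockout it gave 504, 482 and 452 in hippocampus against 520.2, 518 and 530.2 in cortex, a log2 fold change of -0.126. Spata13, a guanine nucleotide exchange factor, gave 209, 184 and 103 in hippocampal controls against 69.0, 36.9 and 44.8 in cortical controls, a log2 fold change of 1.61. In libraries labelled knockout it gave 148, 155 and 102 in hippocampus against 218, 184 and 162 in cortex, a log2 fold change of -0.471. In both genes the regions did not overlap in either comparison and the direction was opposite, but neither was called in libraries labelled knockout. There 9.13% of all tested genes did not overlap in the lower direction. The control call of Slc31a1 was kept in 1 of 6 fits with a library left out, and that of Spata13 in 2 of 6. The difference between the comparisons was not tested. Slc31a1 belongs to the choroid plexus list, whose summed level was 24536 to 54786 CPM in hippocampal controls against 1797 to 17803 in cortical controls, and 2010 to 3269 in hippocampus against 1535 to 3469 in cortex in libraries labelled knockout. The part of that list in the Slc31a1 value was not tested.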

How the results depend on the processing

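No named result changed sign among called values. The 97 calls (39 higher, 58 lower) became 21 (3 and 18) with no filter on low values, 64 (23 higher) with edgeR and TMM factors, 23 higher with RLE factors, 366 (158 and 208) with DESeq2, 42 (11 and 31) in a fit of the 12 control libraries, 152 (99 lower) in a fit of all 24, 363 (114 and 249) in a fit of the 12 hippocampal and cortical libraries, and 555 (515 higher) on deposited values. Leaving out 1 library gave 14 to 287 calls, 2 to 207 higher and 11 to 106 lower. The 348 calls of libraries labelled knockout became 127 (67 and 60) with no filter, and 176 to 297, 102 to 158 higher and 66 to 139 lower, with 1 library left out. The cause was not tested. With the replicate number as a block there were 306 control calls (138 and 168). Same-numbered deviations correlated at 0.24, 0.01 and -0.14 in controls. With 3 libraries per group, such weak values cannot decide whether the numbers as given pair libraries. Hippocampal control 1 correlated best with cortical control 1 (0.24), and only these controls held Ddx3y reads. Hippocampal control 2 correlated best with cortical control 3 (0.15) and hippocampal control 3 with cortical control 2 (0.24). Whether such libraries share an animal was not tested, and the main test takes all libraries as unpaired. Under settings other than a left-out library, single genes of the control comparison kept direction and call in 1253 values, lost the call in 172 and gained it in 7; with 1 library left out these numbers were 308, 142 and 1. Genes under about 20 normalised reads, such as Crym and Meis1 in hippocampus, are limited by depth.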
